A study of Danio rerio with 18 samples.

Results

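The genes described here make fatty acids from acetyl-CoA and then lengthen or desaturate them. They were taken as the rows of the count table whose gene carried 1 of 10 symbols, with case ignored: fasn, acaca, acacb, scd, scdb, fads2, elovl5, elovl6, acly and acss2. Of these symbols, 9 matched and acly matched 2 gene IDs, which gave 10 genes of the 32057 in the table. No gene ID carried the symbol fads2. An ID with the symbol fads3, which may or may not be that gene, is described below and is not counted among the 10. All 10 genes passed the filter on low counts.

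The counts came from whole brains of adult zebrafish aged 4 months. The fish were offspring of parents that each carried 1 copy of hu3528, an allele of the mitofusin gene mfn2 labelled as loss of function, and they were wild type (WT, +/+), heterozygous (Het) or homozygous mutant (Hom). There were 6 families, each from 1 mating of its own pair of parents, and each family gave 1 library of every genotype. Brains of 2 females and 2 males, 4 in all, were combined for each library. Siblings were sorted by genotype at 2.5 months and then kept in a tank for each genotype, so genotype and tank within a family cannot be told apart. The comparison asks how the brain transcriptome differs between siblings with none, 1 or both copies of mfn2 mutated.

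Fatty acid synthesis starts from acetyl-CoA, which ATP-citrate lyase (acly) makes from citrate in the cytosol and acyl-CoA synthetase (acss2) makes from acetate. Acetyl-CoA carboxylase turns it into malonyl-CoA, and fatty acid synthase (fasn) joins malonyl-CoA units into palmitate. Elongases then lengthen the chain, and desaturases put in double bonds. In the brain these fatty acids go into the phospholipids and sphingolipids of neuronal membranes and myelin. In mammals, many of these genes are targets of the transcription factors SREBP-1 and SREBP-2, which also drive sterol synthesis. Mitofusin acts in fusion of the mitochondrial outer membrane, and fatty acid oxidation takes place inside that organelle.

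Total counts per library ran from 21945070 to 42897654. The targeted gene, mfn2, had 75.2, 128 and 140.2 normalized CPM (counts scaled for library size) as the lowest, median and highest WT level, and 25.4, 28.7 and 34.1 in Hom. In family 2 the labels and mfn2 were at odds, with the library labelled Het at 156% of the library labelled WT, against 52.2% to 66.8% in the other families. Over 13196 genes, 3 libraries stood apart from the rest: the Het libraries of families 1 and 3 and the Hom library of family 3. Between 2075 and 3579 of their genes lay over 2-fold from the median library, against 74 to 206 in the other 15. Results for the 10 genes were therefore computed with all 18 libraries and with those 3 left out, which leaves 6 WT, 4 Het and 5 Hom, a choice made once the data had been seen. Family 3 then keeps only its WT library, which, with family as a block, adds nothing to the fold changes or their tests. Hom and WT are then both present in 5 families, and Het is present with either in 4. Summed neuronal markers (14 IDs, 0 of them at zero in all libraries) ran from 9489 to 12164 CPM, so the defining markers of brain tissue were present.

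With all 18 libraries, 0 of the 10 genes passed edgeR's quasi-likelihood test at a Benjamini-Hochberg adjusted p under 0.05 in Hom against WT, where 1.92% of the 20353 genes tested did. The same held for Het against WT, where 0% of all genes passed (524 had an unadjusted p under 0.05, and DESeq2 called 2), and for Hom against Het, where 1.99% passed. At an unadjusted p under 0.05 the counts of the 10 genes were 2, 0 and 4 in that order, where 2919, 524 and 4428 of the 20353 genes tested had one. DESeq2 called 1, 0 and 1, where it called 5.18%, 0.00983% and 7.99% of all genes. The levels of the genotypes overlapped for all 10 genes in every comparison. Of all genes tested, 3.04%, 0.0786% and 3.26% did not overlap, in the same order, so 0 of 10 is near those shares. The median log2 fold change over the 10 genes was −0.16 in Hom against WT, −0.14 in Het against WT and 0.02 in Hom against Het, and over all genes tested it was 0.04, 0.01 and 0.06. The ID named fads3, described below, is not counted in any of these figures for the 10 genes. Picked after its values were seen, it passed edgeR's test over 18 libraries in Hom against WT and in Hom against Het.

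With the 3 libraries left out, acaca, fasn and the acly gene ENSDARG00000099079 were lower and acacb was higher in Hom than in WT. That is 3 of 10 lower and 1 of 10 higher, where 3.29% and 4.77% of all genes tested were called in those directions. In Hom against Het, acaca and the same acly gene were lower and acacb was higher, where 1.83% of all genes were called lower and 2.93% higher. In Het against WT the test called 0 of the 10 genes and 0% of all genes, and 0 of the 10 had an unadjusted p under 0.05. DESeq2 was not run on the 15 libraries. With the WT and Het libraries of family 2 left out as well, 3 of the 10 genes passed in Hom against WT, where 5.83% of all genes did, and 2 in Hom against Het, where 2.83% did. Family 2 then keeps only its Hom library, which adds nothing to these tests either. In Het against WT 0 passed, where 0.0096% of all genes did.

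**Figure D1:**
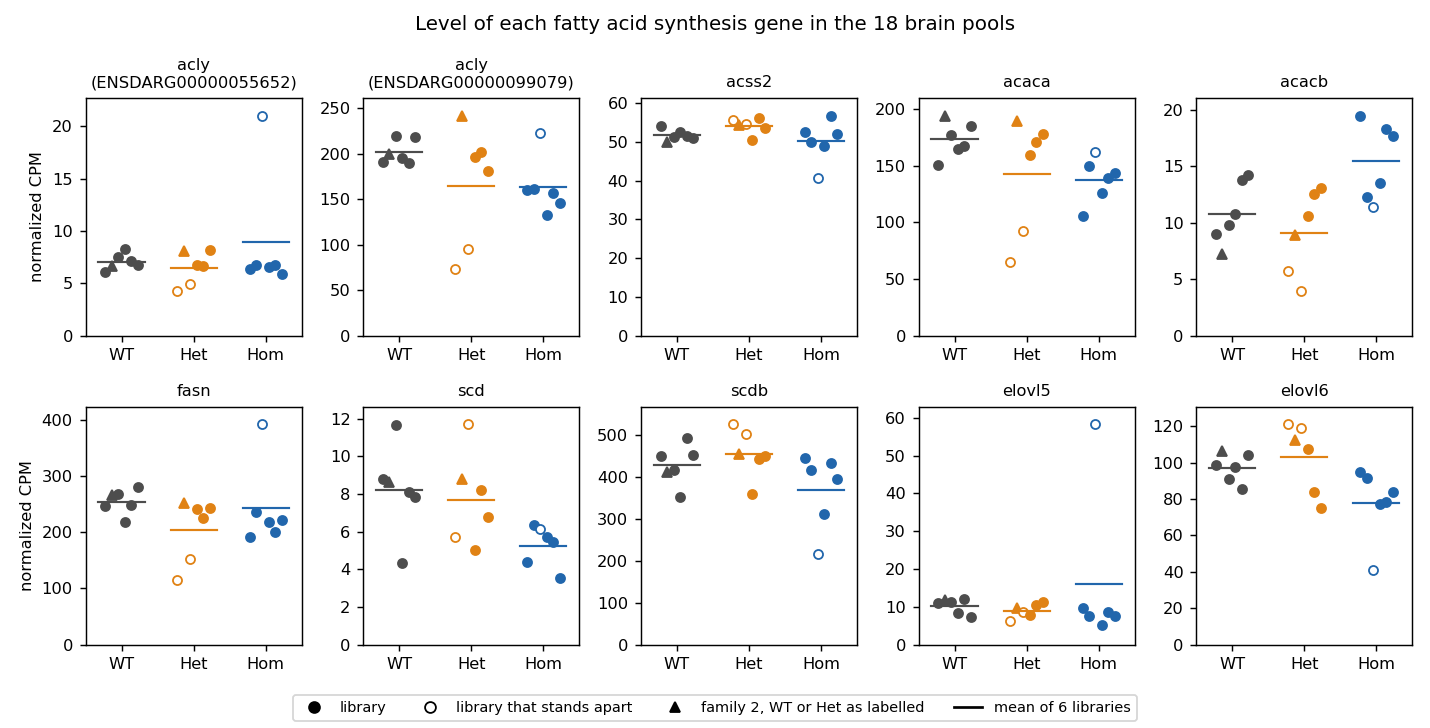
Normalized CPM (vertical axes, each from 0) of the 10 genes in WT, Het and Hom; each symbol is 1 library of 4 pooled brains and the line is the mean of 6. Open circles are the 3 libraries that stand apart, which hold the lowest Het values of acaca (64.7 and 92.7) and the highest Hom value of fasn (392), and triangles are the WT and Het libraries of family 2.

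Of the genes that supply acetyl-CoA, acly ENSDARG00000099079 was lower in Hom, past the test only with the 3 libraries left out. Its lowest, median and highest levels were 190, 197 and 219 normalized CPM in WT, 73.4, 189 and 242 in Het, and 132, 158 and 223 in Hom. The Het libraries of families 1 (73.4) and 3 (95.05) lay far below the other Het libraries, and the Hom library of family 3 (223) lay above all WT libraries. The other 5 Hom libraries lay between 132 and 162, below every WT library, as did 1.74% of all genes over the 15 libraries.

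The log2 fold change of acly ENSDARG00000099079 in Hom against WT was −0.31 ± 0.24 (SE) with an adjusted p of 0.612 over 18 libraries, and the level was lower in 5 of 6 families. Over 15 libraries it was −0.39 ± 0.07 with an adjusted p of 0.00603 (edgeR), lower in 5 of 5 families. Across all 31 alternatives its adjusted p ran from 0.00603 to 0.833. Against Het the log2 fold change was 0.04 ± 0.24 (adjusted p 0.930) over 18 libraries and −0.43 ± 0.08 (adjusted p 0.00741) over 15, so both the sign and the call turned on the 3 libraries.

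The second gene with the symbol acly, ENSDARG00000055652, had medians of 6.94 in WT, 6.71 in Het and 6.65 normalized CPM in Hom. Hom libraries other than that of family 3 lay between 5.92 and 6.79, inside the WT range of 6.13 to 8.25 but for 1 library. The Hom library of family 3 was at 21.0. The log2 fold change in Hom against WT was 0.22 ± 0.27 (adjusted p 0.743) over 18 libraries and −0.09 ± 0.11 (adjusted p 0.670) over 15, and neither passed edgeR's test.

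The synthetase acss2 had the smallest SE of the 10 genes over 18 libraries. It had 49.999, 51.5 and 54.1 normalized CPM as lowest, median and highest in WT, 50.6, 54.5 and 56.1 in Het, and 40.8, 50.9 and 56.8 in Hom, so the genotypes overlapped. Its log2 fold change in Hom against WT was −0.05 ± 0.08 with a 95% interval of −0.22 to 0.12 (adjusted p 0.793, edgeR), and over 15 libraries 0.01 with an interval of −0.09 to 0.12.

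The acetyl-CoA carboxylase genes differed in opposite directions in Hom, acaca lower and acacb higher, and both passed the test against WT with the 3 libraries left out. In mammals ACACA makes the malonyl-CoA used for synthesis in the cytosol, while ACACB sits at the mitochondrial outer membrane, where malonyl-CoA inhibits the entry of fatty acids through carnitine palmitoyltransferase. The level of acaca was 151, 172 and 194 normalized CPM (lowest, median, highest) in WT, 64.7, 165 and 189 in Het, and 106, 141 and 162 in Hom. The level of acacb was 7.21, 10.3 and 14.2 in WT, 3.96, 9.80 and 13.1 in Het, and 11.4, 15.6 and 19.5 in Hom. The WT and Hom ranges of both genes overlapped over 18 libraries. Without the Hom library of family 3 (162), the Hom range of acaca ended at 150.1 and the WT range began at 151.0, a gap of under 1 CPM.

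Within families the direction was the same throughout. The Hom level of acaca was 70.1%, 77.3%, 91.4%, 76.5%, 83.2% and 77.6% of that of the WT sibling pool in families 1 to 6. The Hom level of acacb was 215%, 170%, 117%, 125%, 133% and 124% of it in the same order. Family 3 had the smallest difference for both genes and holds the Hom library that stands apart.

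For acaca the log2 fold change in Hom against WT was −0.34 ± 0.18 (adjusted p 0.409) over 18 libraries and −0.37 ± 0.05 (adjusted p 5.48e-04, edgeR) over 15. The estimate hardly moved, while its SE was smaller without the 3 libraries. Against Het it was 0.01 ± 0.18 (adjusted p 0.9745) over 18 libraries and −0.33 ± 0.05 (adjusted p 0.00281) over 15. Across the 31 alternatives the adjusted p of acaca in Hom against WT ran from 5.48e-04 to 0.671. The 15-library ranges of Hom and Het did not overlap either, as in 3.09% of all genes in the lower direction.

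For acacb the log2 fold change in Hom against WT was 0.53 ± 0.20 with a 95% interval of 0.09 to 0.96 (adjusted p 0.252) over 18 libraries, and 0.59 ± 0.11 (adjusted p 0.00854, edgeR) over 15. Against Het it was 0.82 ± 0.20 (adjusted p 0.0598) over 18 libraries, higher in 6 of 6 families, and 0.52 ± 0.13 (adjusted p 0.0355) over 15. DESeq2 called this last comparison over all 18 libraries, with a log2 fold change of 0.83 and an adjusted p of 0.00497. Its adjusted p ran from 0.00854 to 0.477 in Hom against WT and from 0.00497 to 0.215 in Hom against Het across the 31 alternatives. With the WT and Het libraries of family 2 also left out, acacb in Hom against Het did not pass (0.54, adjusted p 0.0905), while it passed in Hom against WT (0.55, adjusted p 0.0381).

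The ratio of the carboxylases within a library needs no scaling between libraries. Per 100 acaca counts there were 6.29 ± 1.63 acacb counts in WT, 6.54 ± 1.73 in Het, and in Hom 11.6 ± 4.07 (mean ± SD over 6 libraries). The ratio ran from 3.71 to 8.26 in WT and from 7.06 to 18.4 in Hom, so the ranges overlapped. It was higher in Hom than in the WT sibling pool in 6 of 6 families. The lowest Hom value, 7.06, belonged to family 3, whose WT pool was at 5.51. These counts are per gene and not per length, so the ratio compares libraries and not the amounts of the transcripts.

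**Figure D2:**
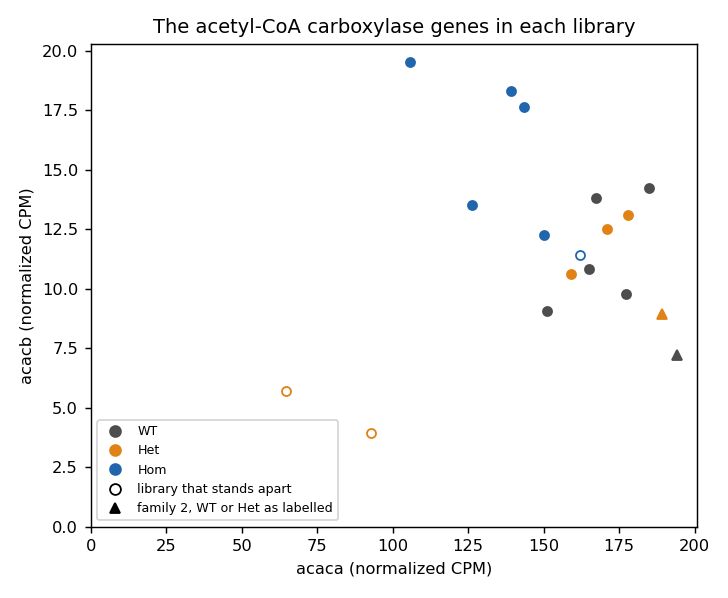
Normalized CPM of acacb (vertical) against acaca (horizontal), both axes from 0, with 1 symbol per library coloured by genotype. Hom libraries lie at acaca of 106 to 162 and acacb of 11.4 to 19.5, and WT libraries at 151 to 194 and 7.21 to 14.2. The Hom library of family 3, at 162 and 11.4, lies inside both WT ranges. The open orange circles are the Het libraries of families 1 and 3, low in both genes.

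Fatty acid synthase, fasn, is the multi-domain enzyme that carries out the whole chain synthesis. Its levels were 218, 257 and 281 normalized CPM (lowest, median, highest) in WT, 115, 233 and 252 in Het, and 192, 219 and 392 in Hom. The 3 libraries that stand apart were the extremes: the Het libraries of families 1 and 3 at 115 and 152, and the Hom library of family 3 at 392. The other Hom libraries lay between 192 and 235, overlapping the WT range at its lower end.

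The log2 fold change of fasn in Hom against WT was −0.09 ± 0.20 (adjusted p 0.847) over 18 libraries, and −0.23 ± 0.06 (adjusted p 0.0327, edgeR) over 15, where the level was lower in 4 of 5 families. In the remaining family, the Hom level was 100.2% of that in WT. The call did not hold with the WT and Het libraries of family 2 also left out, where the value was −0.24 with an adjusted p of 0.0822. Across the 31 alternatives the adjusted p ran from 0.0327 to 0.971 and the log2 fold change from −0.29 to 0.02.

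Stearoyl-CoA desaturases put the first double bond into saturated chains and so make monounsaturated fatty acids such as oleate. The gene scd had 4.32, 8.37 and 11.6 normalized CPM (lowest, median, highest) in WT, 5.05, 7.48 and 11.7 in Het, and 3.55, 5.57 and 6.35 in Hom. Except for the WT library of family 4, at 4.32, all WT libraries lay above all Hom libraries. In that family, the Hom library was at 132% of its WT sibling pool, and in the other 5 it was at 45.2% to 73.6%.

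The log2 fold change of scd in Hom against WT was −0.61 ± 0.18 (adjusted p 0.119, edgeR) over 18 libraries and −0.54 ± 0.18 (adjusted p 0.0948) over 15. DESeq2 called it, at −0.61 with an adjusted p of 0.0249. It also passed edgeR's test without family 4 (−0.81, adjusted p 0.0317) and without the Hom library of family 4 alone (−0.78, adjusted p 0.0218). In Hom against Het it passed without the Hom library of family 4 (−0.68, adjusted p 0.0465), where all 18 libraries gave −0.51 ± 0.18 (adjusted p 0.152) and the 15 libraries −0.48 ± 0.20 (adjusted p 0.203). Over the 31 alternatives the adjusted p in Hom against WT ran from 0.0218 to 0.360, and in Hom against Het from 0.0465 to 0.376.

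The second stearoyl-CoA desaturase gene, scdb, had medians of 433 in WT, 453 in Het and 406 normalized CPM in Hom. Its range was 352 to 494 in WT and 217 to 445 in Hom, with the Hom library of family 3 at the low end, and the genotypes overlapped. The log2 fold change in Hom against WT was −0.23 ± 0.14 (adjusted p 0.485, edgeR) and over 15 libraries −0.10 ± 0.05 (adjusted p 0.267). Against Het it was −0.32 ± 0.14 (adjusted p 0.208), lower in 6 of 6 families, and −0.11 ± 0.06 (adjusted p 0.297) over 15 libraries.

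Front-end desaturases make the highly unsaturated fatty acids that brain membranes hold. No ID bore the symbol fads2, and a single ID, ENSDARG00000019532, bore the symbol fads3. A RefSeq gene table for zebrafish lists fads2 and no fads3, without an Ensembl ID for it. From these sources, whether this ID is the fads2 gene could not be settled. It was chosen after its values were seen and is no member of the set. Its levels were 256, 308 and 347 normalized CPM (lowest, median, highest) in WT, 237, 353 and 422 in Het, and 60.5, 118 and 266 in Hom. All Hom libraries but that of family 2 (266) lay below every WT library.

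The log2 fold change of fads3 in Hom against WT was −1.22 ± 0.24 with an adjusted p of 0.0216, and against Het −1.36 ± 0.24 with an adjusted p of 0.0130 (edgeR, 18 libraries), lower in 6 of 6 families. Over 15 libraries the values were −1.01 ± 0.12 (adjusted p 4.28e-04) and −0.95 ± 0.13 (adjusted p 0.00148). The Hom level was 17.4% of WT in family 3 and 37.3% to 77.8% in the others. In Hom against WT the call was lost, at adjusted p up to 0.123, without family 1, 4, 5 or 6, and without any of 6 single libraries: WT of families 3, 4, 5 and 6 and Hom of families 1 and 4. In Hom against Het it was lost, at adjusted p up to 0.0866, without family 1, 4 or 5 or the Hom library of family 1.

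The elongase elovl6 lengthens saturated and monounsaturated chains of the length fasn releases. Its levels were 85.5, 98.3 and 106 normalized CPM (lowest, median, highest) in WT, 75.1, 110.1 and 121 in Het, and 40.9, 81.1 and 94.9 in Hom. Of the 6 Hom libraries 4 lay below every WT library, with that of family 3 lowest at 40.9, and the ranges overlapped. The level was lower in Hom than in WT in 6 of 6 families, but the log2 fold change of −0.34 ± 0.17 did not pass (adjusted p 0.386, edgeR), nor did −0.20 ± 0.08 over 15 libraries (adjusted p 0.177).

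The elongase elovl5 acts on polyunsaturated chains. It had 7.39, 11.1 and 11.9 normalized CPM in WT, 6.30, 9.18 and 11.1 in Het, and 5.13, 8.07 and 58.3 in Hom. The Hom library of family 3 held 58.3 and the other 5 Hom libraries 5.13 to 9.72. In Hom against WT the log2 fold change of elovl5 was 0.14 ± 0.41 (adjusted p 0.892) over 18 libraries and −0.40 ± 0.13 (adjusted p 0.0735) over 15, and neither passed edgeR's test. With only the Hom library of family 3 left out it was −0.41 (adjusted p 0.273), and with only the WT library of that family left out −0.16.

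**Figure D3:**
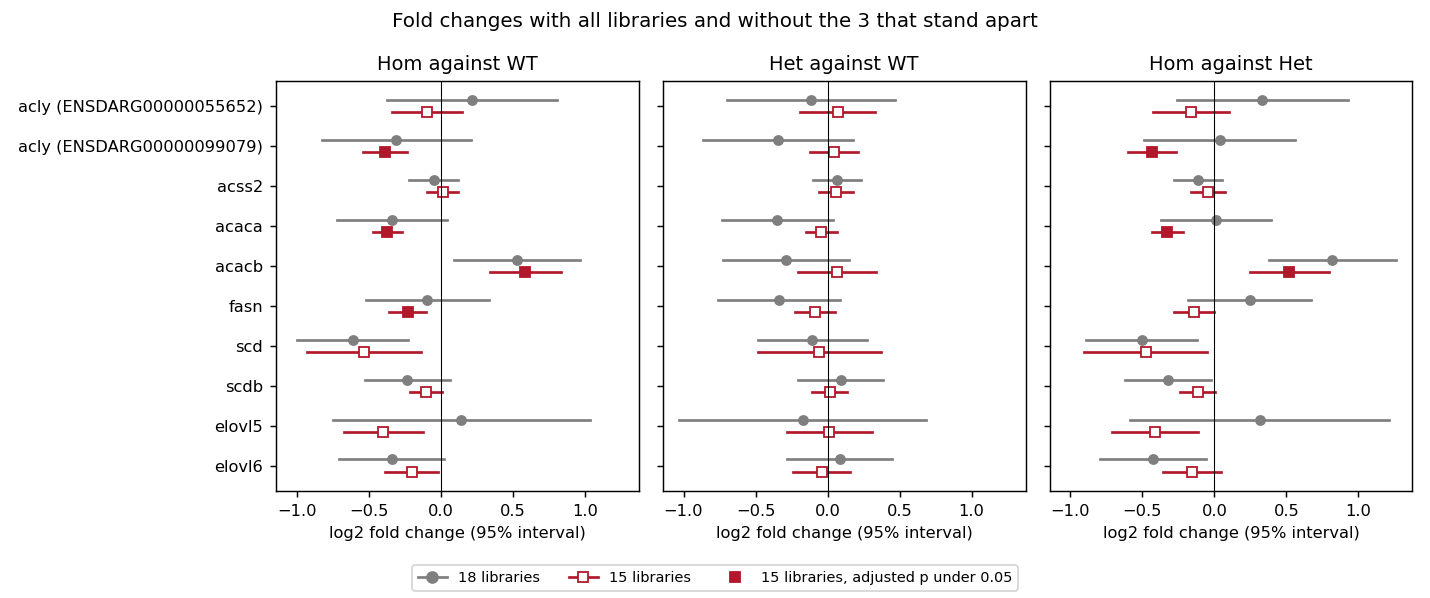
Log2 fold change (horizontal) with its 95% interval for the 10 genes in the 3 comparisons, over 18 libraries (grey circles) and with the 3 libraries that stand apart left out (squares, filled where the adjusted p was under 0.05). In Hom against WT the filled squares are acly ENSDARG00000099079 (−0.39), acaca (−0.37), acacb (0.59) and fasn (−0.23), and Het against WT has none.

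Heterozygotes were not distinguished from WT for any of the 10 genes. Over 18 libraries the largest log2 differences of Het against WT were −0.35 for acaca, −0.34 for fasn and −0.34 for acly ENSDARG00000099079, each with an adjusted p of 0.903 (edgeR). Over 15 libraries the same genes were at −0.04, with a 95% interval of −0.15 to 0.06, at −0.09, with −0.23 to 0.05, and at 0.04, with −0.12 to 0.21. For acacb the value over 15 libraries was 0.07, with an interval of −0.20 to 0.34. These 15-library values rest on 4 families, including family 2, where the labels and mfn2 were at odds. Both comparisons with Hom use the same Hom libraries, and both comparisons with WT the same WT libraries.

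The 3 libraries that stand apart did not do so in 1 direction. Relative to the median of the other 15, the Het libraries of families 1 and 3 were lower by log2 differences of −1.34 and −0.83 for acaca, −1.37 and −1.003 for acly ENSDARG00000099079, −1.07 and −0.66 for fasn, and −1.06 and −1.55 for acacb. The Hom library of family 3 was higher for elovl5 (2.53), acly ENSDARG00000055652 (1.57) and fasn (0.70) and lower for elovl6 (−1.15) and scdb (−0.9995), and its acaca lay at −0.03. The sterol and fatty acid regulators srebf1 and srebf2, whose single-library values were picked after they were seen, were at 220 and 838 normalized CPM in that Hom library, against 6.11 to 20.2 and 50.1 to 83.6 in the other Hom libraries. In the Het libraries of families 1 and 3, srebf1 was at 1.37 and 3.23 and srebf2 at 12.5 and 24.7, against 14.04 to 19.3 and 80.0 to 95.9 in the other Het libraries. The summed level of oocyte markers (13 IDs) was 175 CPM in the Hom library of family 3 and at most 7.02 elsewhere. The part of these differences in the results for the 10 genes was not tested.

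How the 10 genes varied together depended on the same libraries. Among the 45 pairs of genes, the median Pearson r of log2 levels centred on the family mean was 0.13 over 18 libraries, with 23 pairs positive, and 0.40 over 15 libraries, with 34 positive, and 23 pairs differed in sign between the sets. The pair acaca and acly ENSDARG00000099079 kept together, with r of 0.96 and 0.88, and so did fasn and acaca, with 0.87 and 0.82. For acaca and acacb r was 0.37 over 18 libraries and −0.93 over 15. Both genes of a pair were measured in the same libraries, which differ in genotype and depth and were scaled together. Only the family mean was subtracted, so differences between genotypes remain in r, which is a description of the libraries.

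Outside the set, the 5 genes most like fasn among 17264 were pex5 (r 0.95 over 18 libraries and 0.94 over 15), fndc3a, jak2a, fxr2 and kif21a. The gene pex5 encodes a receptor for protein import into peroxisomes. The 5 most like scd were mtif2 (r 0.94 in both), si:dkey-151p11.2, map6, atic and rnf20. In these lists mtif2 is an initiation factor of mitochondrial translation, and atic an enzyme of purine synthesis. No such list was made for fads2.

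Over all the lists of regulators and partners of the pathway, with sterol synthesis as a comparison list, 18 of 188 genes passed in Hom against WT over 18 libraries, where 1.92% of all genes did. Of those 18 genes, 11 belonged to the 26 of sterol synthesis. Over 15 libraries 39 of 188 passed, 17 of them sterol genes, where 4.77% of all genes were called higher and 3.29% lower. For the unadjusted counts below, 2919 of the 20353 genes tested over 18 libraries had a p under 0.05, and 4824 of 20586 over 15. Of 32 regulators tested, 1 rose and 1 fell over 18 libraries, with a list median log2 fold change of 0.03. The one that fell was insig1, which holds SREBP precursors in the endoplasmic reticulum and is itself an SREBP target in mammals. Its level was 66.7, 92.9 and 105 normalized CPM (lowest, median, highest) in WT and 37.2, 43.3 and 62.4 in Hom, with no overlap, and its log2 fold change was −0.98 ± 0.13 (adjusted p 0.00203, edgeR). The one that rose was pparg, a nuclear receptor of fat storage, with 0.628, 1.07 and 1.57 in WT and 1.60, 2.64 and 7.06 in Hom and a log2 fold change of 1.502 ± 0.29 (adjusted p 0.0184). Over 15 libraries the values were −0.95 ± 0.11 for insig1 and 1.16 ± 0.21 for pparg, with adjusted p of 5.00e-04 and 0.00642. Over 15 libraries srebf2 fell too (−0.43 ± 0.10, adjusted p 0.0222), which made 1 of 32 higher and 2 lower.

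Among 17 genes for substrate and reducing power, me1, a malic enzyme that yields NADPH, rose (log2 fold change 1.11 ± 0.26, adjusted p 0.0458, edgeR) from a low level of 0.539 to 1.58 normalized CPM in WT. The others did not pass, and the list median was −0.07. The citrate carriers slc25a1a and slc13a5 were at −0.30 (adjusted p 0.175) and −0.51 (adjusted p 0.115). Over 15 libraries 1 gene of this list was higher, me1 at 1.14 ± 0.24 (adjusted p 0.0138), and 3 were lower, where 4.77% and 3.29% of all genes were. In the separate mitochondrial route of fatty acid synthesis 0 of 12 genes passed edgeR's test in either set of libraries (2 and 3 had an unadjusted p under 0.05 over 18 and 15 libraries, and DESeq2 called 0 over 18). Its members of smallest p, ndufab1, lias and ndufab1b, were at −0.33, −0.31 and −0.37.

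The rest of the elongation cycle had 0 of 15 genes past edgeR's test over 18 libraries, with a median of −0.18; 4 had an unadjusted p under 0.05 and DESeq2 called 1. Its members of smallest p were the elongases elovl7 (−0.53, adjusted p 0.106) and elovl1 (ENSDARG00000099960; −0.57, adjusted p 0.245) and the enoyl-CoA reductase tecr (ENSDARG00000025904; −0.38, adjusted p 0.205). Over 15 libraries 3 of 15 were lower, elovl2 (−0.89 ± 0.12, adjusted p 0.00111), elovl7 (−0.51, adjusted p 0.0465) and tecr (−0.28, adjusted p 0.0123), where elovl2 is named after its values were seen. Of all genes, 3.29% were called lower over 15 libraries. Among 10 partners of desaturation, fa2h fell (−0.82 ± 0.18, adjusted p 0.0377), and the list median was −0.26. The enzyme fa2h hydroxylates the fatty acids of myelin sphingolipids. Its levels were 66.7 to 119 normalized CPM in WT and 23.7 to 77.0 in Hom, and over 15 libraries its log2 fold change was −0.63 ± 0.10 (adjusted p 0.00329). The reductases cyb5r2 (−0.61, adjusted p 0.166) and cyb5r1 (−0.33, adjusted p 0.496) did not pass.

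Genes that use fatty acids fell into lists for activation and binding, glycerolipid assembly and oxidation. For activation and binding, 0 of 24 passed edgeR's test over 18 libraries (6 at an unadjusted p under 0.05, 1 by DESeq2), with a median of −0.17. Here slc27a1 (ENSDARG00000104949) was at −0.39, acsl5 at 1.076 and acsl4 (ENSDARG00000010752) at 0.32. Over 15 libraries 1 of these 24 was higher and 3 were lower, where 4.77% and 3.29% of all genes tested were called in those directions. For glycerolipid assembly, 2 of 23 rose, and both encode coat proteins of lipid droplets. The gene plin3 had 5.06 to 8.97 normalized CPM in WT and 11.3 to 25.3 in Hom (1.41 ± 0.21, adjusted p 0.00338), and plin2 had 1.73 to 6.59 and 4.75 to 17.99 (1.31 ± 0.28, adjusted p 0.02999). The acyltransferase gpat3 (ENSDARG00000006491) was at 0.77 (adjusted p 0.116), and over 15 libraries 4 of 23 were higher and 2 lower, with plin3 at 1.47 ± 0.18 and plin2 at 1.26 ± 0.30 (adjusted p 5.53e-04 and 0.0218).

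For oxidation, 1 of 30 rose: cpt1b, a carnitine palmitoyltransferase, the enzyme that malonyl-CoA inhibits. It had 1.11 to 2.28 normalized CPM in WT and 2.26 to 5.40 in Hom, with a log2 fold change of 0.96 ± 0.20 (adjusted p 0.0232, edgeR), and 1.11 ± 0.19 (adjusted p 0.00483) over 15 libraries. Its relatives cpt1a (−0.23) and cpt1ab (0.29) did not pass, and the list median was −0.14. Sterol synthesis, the comparison list, had 11 of 26 genes lower, 0 higher and a median of −0.71, and over 15 libraries 17 lower, where 3.29% of all genes were. Among these, sqle (ENSDARG00000079946) was at −2.21, lss at −1.57, cyp51a1 at −1.53, sc5d at −1.05 and fdps at −0.88, and over 15 libraries the same genes were at −2.23, −1.55, −1.51, −0.95 and −0.80. Whether the fatty acid genes differed from the sterol genes was not tested.

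In Hom against Het over 18 libraries, insig1 (−1.003), fa2h (−1.03) and 14 of 26 sterol genes were lower and pparg (1.95), plin3 (1.19) and cpt1b (0.85) were higher, with adjusted p of at most 0.0444 for the named genes. Over 15 libraries cpt1b did not pass in that comparison (0.79, adjusted p 0.0514). In the lists for substrate, mitochondrial synthesis, elongation and activation 0 genes passed edgeR's test over 18 libraries. An unadjusted p under 0.05 was held by 5 of 17, 3 of 12, 8 of 15 and 6 of 24, where 4428 of the 20353 genes tested had one. DESeq2 called 3, 1, 2 and 1, where it called 7.99% of all genes. In Het against WT 0 of the 188 genes of all lists passed in either set of libraries, with 5 at an unadjusted p under 0.05 over 18 libraries, 4 over 15, and 0 by DESeq2. Of all genes tested, 524 of 20353 had an unadjusted p under 0.05 over 18 libraries and 582 of 20586 over 15.

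**Figure D4:**
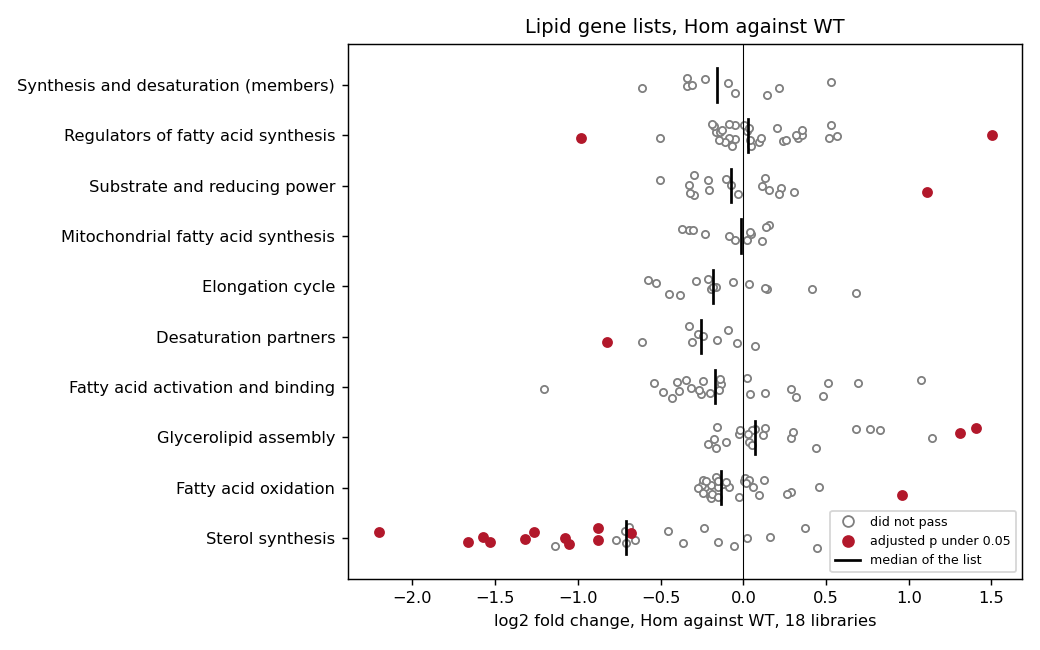
Log2 fold change in Hom against WT over 18 libraries (horizontal) for each gene tested of the 10 synthesis and desaturation genes (top row) and the other lipid lists; filled points had an adjusted p under 0.05 and the bar is the list median. The 10 genes have a median of −0.16 and no filled point, and sterol synthesis has 11, all below 0.

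Markers of cell types that a brain pool can hold were measured in the same libraries. In bulk pools, fewer cells of a type and less RNA per cell cannot be told apart. Summed microglia and macrophage markers (15 IDs) were 825 to 1218 CPM in WT and 888 to 1374 in Het. The Het range ended at 1022 without the Het libraries of families 1 and 3. In Hom they were 1555 to 2262 other than in family 3, whose Hom library was at 610. Of 14 such markers tested, 2 rose in Hom against WT over 18 libraries and 11 over 15. In that comparison, to which such counts here belong unless another is named, 1.92% of all genes passed over 18 libraries. Over 15 libraries 4.77% were called higher and 3.29% lower. An unadjusted p under 0.05 was held by 2919 of 20353 genes over 18 libraries and 4824 of 20586 over 15. Summed neuronal markers were 10980 to 12164 CPM in WT and 9489 to 10428 in the Hom libraries other than that of family 3, which was at 11447, inside the WT range, and 0 of 14 were lower by edgeR over 18 libraries (4 had an unadjusted p under 0.05, and DESeq2 called 2) and 3 over 15. Summed myelin markers (13 IDs) were 13631 to 21098 in WT and 7291 to 18819 in Hom, with 1 of 13 higher over 18 libraries and 1 higher and 1 lower over 15. Radial glia markers (14 IDs) ran from 5882 to 7887 in WT and from 4466 to 6907 in Hom, and 0 of 13 passed edgeR's test in either set (1 and 5 at an unadjusted p under 0.05, and 0 by DESeq2 over 18). Endothelial markers (13 IDs) ran from 263 to 351 in WT and from 294 to 438 in Hom, with 1 of 13 higher over 18 libraries and 4 over 15. The markers of adipocytes (9 IDs) ran from 78.8 to 92.8 and from 92.4 to 134, those of liver (8 IDs) from 2.46 to 9.52 and from 3.95 to 10.7, and those of erythrocytes (6 IDs, 1 at 0 throughout) from 892 to 2694 and from 247 to 3175. Without the Hom library of family 3, the lowest Hom sums were 8625 for myelin, 5373 for radial glia, 4.18 for liver and 584 for erythrocytes. The highest Hom sum for adipocytes was then 114. Of the adipocyte, liver, erythrocyte and oocyte lists, only 4 adipocyte, 4 liver, 4 erythrocyte and 3 oocyte genes were kept by the filter on low counts and tested. In Hom against WT, 0 of these tested genes passed edgeR's test or DESeq2 over 18 libraries. There 1 gene of the adipocyte list had an unadjusted p under 0.05. Over 15 libraries 1 gene of that list was higher, cebpa (0.27, adjusted p 0.0462, edgeR), named after its values were seen. In Hom against Het, DESeq2 called 2 liver and 1 erythrocyte genes over 18 libraries, where it called 7.99% of all genes, and edgeR called 0. Summed liver markers were at 65.4 CPM in the Het library of family 3. The part of these differences in the levels of the 10 genes was not tested.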

How the data were processed

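Per the labels' protocols, polyadenylated RNA of pooled brains was sequenced as read pairs. The authors deposited whole-number counts per gene for the whole series, without normalization. The submitters' processing notes name STAR 2.7.0a, featureCounts, Subread 1.5.2 and the genome GRCz11. The annotation, and the treatment of strand and of multiply mapped reads, are unknown here. Any gene that overlaps another, or closely resembles another in sequence, therefore has an uncertain level. No sequences were compared, so how far this touches the acly, scd and acetyl-CoA carboxylase genes was not tested. All value columns were matched to samples by name, and 0 were unused.

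Symbols came from a table that named 28988 of the 32057 gene IDs. List symbols were matched as written and then with the paralog letter or a trailing number removed. Members and lists were chosen with earlier results of these data known.

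Counts were tested with edgeR 4.0.16 (quasi-likelihood, R 4.3.3). filterByExpr by genotype (minimum count 10, minimum total 15) kept 20353 genes. TMM factors scaled the 18 libraries, and genotype and family were the model terms. Adjustment was Benjamini-Hochberg over all genes tested, with a threshold of 0.05. An SE is the absolute log2 fold change over the square root of the F value. Normalized CPM use TMM-scaled library sizes, log2 levels for directions within families and for correlations had 0.5 added, and group values are over libraries. Family was a block, since siblings of 1 mating share it per the labels. Deviations from genotype means had a median r of 0.170 over the 18 same-family pairs, 8 of them below 0.1, and −0.0824 over 90 other pairs. No libraries of a genotype agreed within sampling noise (lowest chi-square per degree of freedom 17.1).

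Named genes are every member, mfn2, and from each list the 3 tested genes of smallest p in Hom against WT plus any that passed in any comparison over 18 libraries, to at most 6; 1 gene that the rule takes is not reported here. Others are said to have been picked after their values were seen. The genes most like fasn and scd had a mean of at least 1 normalized CPM and the highest lower value of r over 18 and over 15 libraries. Alternatives were no block, RLE scaling, DESeq2 1.42.0, no filter, each family and each library left out, and, added after the data were seen, the 3 libraries that stand apart, the WT and Het libraries of family 2, and all 5 left out.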

Additional observations from a re-analysis of the deposited data

Results flagged for a closer look

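In 5 of the 30 groups of 6 libraries tested, 1 library lay far from the other 5 by a gap test on normalized CPM. Its cutoff is one that chance alone passes in about 5% of independent groups. The 30 groups reuse the same 18 libraries, so the 5 flags are not independent and cannot be set against that share. Each time the library was the Hom library of family 3. In that library fasn was at 392 (the other Hom libraries 192 to 235), elovl5 at 58.3 (5.13 to 9.72), acly ENSDARG00000055652 at 21.0 (5.92 to 6.79) and acly ENSDARG00000099079 at 223 (132 to 162), all above the rest of the genotype. The gene elovl6 was at 40.9 there, below the other Hom libraries at 77.3 to 94.9. The same library was counted above among the 3 that stand apart over all genes, and the cause was not tested.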

How the results depend on the processing

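Of 930 values of the 10 genes under 31 alternatives, 913 kept their side of the threshold, 13 came to pass and 4 passed with the sign turned. Those 4 were in Hom against Het: acaca at −0.33 with 3 and with 5 libraries left out, and acly ENSDARG00000099079 at −0.43 and −0.38. A further 53 values changed sign without passing. Without family as a replicate block, over 18 libraries, the genes past the test were 341 in Hom against WT, 0 in Het against WT and 423 in Hom against Het. Of the 10 members 0 passed in each, as with the block. The 15 libraries were not fitted without the block, so whether the calls over 15 libraries depend on it was not tested.

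DESeq2 gave 1054, 2 and 1626 genes and 1, 0 and 1 members. Leaving out 3 libraries gave 1658, 0 and 981 genes and 4, 0 and 3 members. Leaving out 5 gave 1215, 2 and 589 genes and 3, 0 and 2 members. Leaving out the WT and Het libraries of family 2 gave 238, 0 and 185 genes and 0 members in each. With 1 library or family left out, genes ran from 142 to 716, stayed at 0, and ran from 127 to 662, and members from 0 to 1, at 0, and from 0 to 1. Removing libraries lowers the number of samples, and the cause of the differences was not tested. The lowest count of a member in any library was 100, for scd in the Hom library of family 6.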

Other observations

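The ID named fads3, taken up after its values were seen, had as its most similar genes among 17264 the mitochondrially encoded mt-nd4 (Pearson r of family-centred log2 levels 0.98 over both 18 and 15 libraries), mt-nd1 and mt-nd2, together with nptn and sypb, which encode proteins of synapses. For comparison, the most similar gene to fasn was pex5 and to scd mtif2, both nuclear genes. These r describe the libraries, and since only the family mean was subtracted, differences between genotypes remain in them.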
